A study of Mus musculus with 6 samples.

Results

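Hepatokines are proteins that the liver secretes into blood and that act on metabolism in other organs. The 9 genes described here are Fgf21, Gdf15, Lect2, Ahsg, Fetub, Angptl6, Angptl8, Selenop and Enho. They were chosen by symbol as liver-secreted metabolic signals, by a rule without measured values but with earlier results of these data known. They are among 55401 genes in the deposited count table. Each matched 1 Ensembl identifier there, had counts in all 6 libraries and passed the filter on low counts, so 9 of 9 were tested. The RNA came from fresh liver of C57BL/6 mice. In the OP group (3 libraries) the mice received OP, which the series title gives as okra polysaccharide, a carbohydrate preparation from the okra plant. In the HFCF group (3 libraries) the diet was rich in fat, fructose and cholesterol. For OP the labels give no diet, dose or duration, and neither age nor sex is given for either group, so the shared background that can be stated is strain and tissue. No group on a standard diet is compared here. Whether each sample came from its own animal is not stated, so p-values measure only sample spread, which may be technical. In bulk tissue, fewer cells of a type and less RNA per cell cannot be told apart.

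As background, these hormones fall into a few classes. FGF21 and GDF15 are hormones of metabolic stress: FGF21 acts through FGF receptors with the coreceptor beta-Klotho, and GDF15 acts on the hindbrain receptor GFRAL, which signals with RET and lowers food intake. FGF21 transcription in liver answers to PPAR-alpha in fasting, to ChREBP after sugar and to ATF4 when amino acids are short, and GDF15 is also induced by the ATF4 and CHOP stress response. LECT2, fetuin-A (Ahsg) and fetuin-B (Fetub) have been tied to poor insulin action, and fetuin-A binds the insulin receptor. ANGPTL8 takes part in inhibiting lipoprotein lipase after feeding, ANGPTL6 opposes obesity in mice, selenoprotein P (Selenop) carries selenium to other tissues, and adropin (Enho) is a peptide linked to the choice between glucose and fat as fuel.

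Library totals ranged from 50635853 to 61918541 counts in OP and from 46459980 to 58822973 in HFCF, and 3 counts, the level a count of 0 still allows, came to between 0.0472 and 0.0625 CPM (counts relative to the TMM-scaled library total). Counts of 4 were more common than counts of 3 or 5 in all 6 libraries, so a single read pair may have added more than 1 count and the true depth may be lower; such limits cover counting error only. The liver markers were abundant, with the summed level of 9 hepatocyte genes at 77373 to 103490 CPM in OP and 45121 to 69702 CPM in HFCF. Mitochondrially encoded mRNA took 6.08% to 14.4% of counts in OP and 14.1% to 22.0% in HFCF. The 6 erythroid genes summed to 192 to 415 CPM in OP and 943 to 1769 CPM in HFCF, and 5 of 6 fell (edgeR, adjusted threshold of 0.05). The erythroid count was 1 without OP replicate 1 and 0 without HFCF replicate 1, without HFCF replicate 2, and in a fit that took the mitochondrial share as covariate. The 7 adipocyte genes summed to 19.7 to 89.0 CPM in OP and 6.51 to 26.9 CPM in HFCF. Over all 17394 genes tested, 4385 had an unadjusted p under 0.05 in edgeR. Of the 5 adipocyte genes that were tested 0 passed in edgeR, against 2 at an unadjusted p under 0.05, 0 in DESeq2 and 1 in limma-voom. The part of these differences in the results below was not tested.

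Hepatokine mRNA levels spanned a wide range in both groups. Levels of different genes are compared here as TPM, counts divided by exon length (GENCODE M21) and scaled to the same sum in each library. Ahsg was the most abundant, at 3615 ± 1403 TPM in OP and 2802.5 ± 577 TPM in HFCF (SD, n = 3 each). Selenop followed at 1942 ± 582 TPM in OP and 1489 ± 309.7 TPM in HFCF. The OP libraries of these neighbours overlapped across libraries, and Ahsg lay above Selenop within each of the 6 libraries. Fetub came next, at 738 ± 46.7 TPM in OP and 496 ± 40.4 TPM in HFCF, then Lect2, at 381 ± 66.5 TPM in OP and 121 ± 28.0 TPM in HFCF. Neither overlapped a neighbour in the order within a group.

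The other 5 members were far lower, and their order differed between the groups. In OP, Angptl8 stood at 51.3 ± 21.3 TPM, Fgf21 at 22.0 ± 10.3 TPM, Enho at 20.8 ± 13.9 TPM and Angptl6 at 20.6 ± 2.49 TPM. In HFCF, Enho came first of these at 36.1 ± 4.91 TPM, then Angptl8 at 19.7 ± 13.3 TPM, Angptl6 at 13.2 ± 2.00 TPM and Fgf21 at 7.95 ± 1.38 TPM. Gdf15 was lowest in both groups, at 5.96 ± 2.99 TPM in OP and 1.80 ± 1.85 TPM in HFCF. Within OP the ranges of Angptl8, Fgf21, Enho and Angptl6 each overlapped the next in the order. Within HFCF, Enho overlapped Angptl8 and Angptl8 overlapped Angptl6, while Fgf21 lay below Angptl6 in all 3 libraries.

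**Figure D1:**
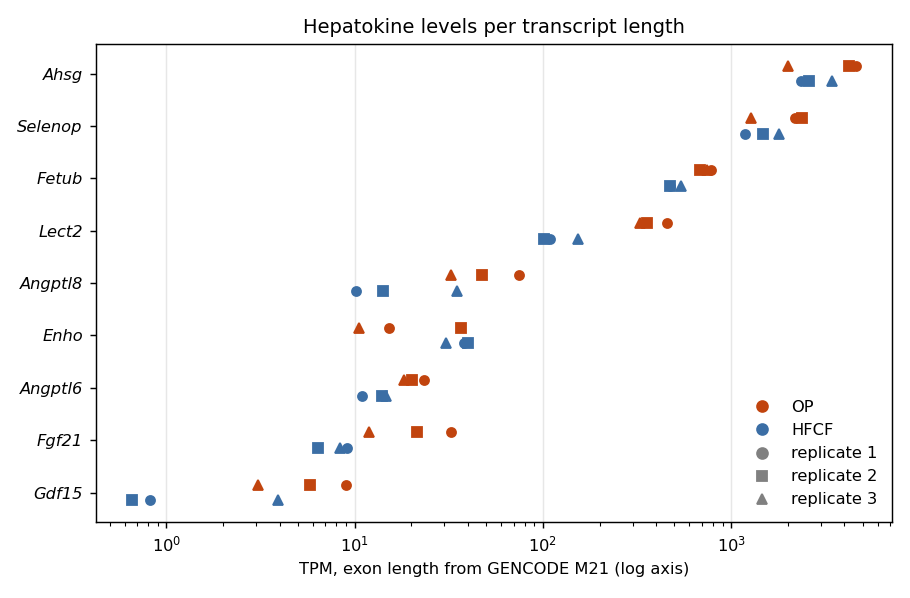
Levels per transcript length of the 9 hepatokine genes (TPM, log axis), with OP in orange above HFCF in blue for each gene and 1 marker per library. Ahsg, Selenop, Fetub and Lect2 lie above 100 TPM in each library, and Gdf15 has the lowest group means, at 5.96 TPM in OP and 1.80 TPM in HFCF.

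The comparison of OP with HFCF asked which of these secreted signals differed between the livers. Of the 9 members, 2 rose, Lect2 and Fgf21, none fell and 7 did not pass an adjusted p of 0.05 (quasi-likelihood test of edgeR, p-values adjusted by Benjamini-Hochberg over all 17394 genes tested). Over all genes tested, 6.73% passed in either direction and 3.26% passed with a higher and 3.47% with a lower level in OP. In 5 of 9 members (Lect2, Fgf21, Angptl8, Angptl6 and Fetub) every OP library was above every HFCF library in CPM, against 31.2% of all genes whose groups did not overlap in either direction and 15.8% with OP above. The median log2 fold change of the members was 0.50, and that of all genes tested was 0.019. The number of members past the threshold was 1 without OP replicate 1, HFCF replicate 1 or HFCF replicate 2, 2 without OP replicate 2 or OP replicate 3, and 3 without HFCF replicate 3. Without OP replicate 2 the 2 calls were 1 higher and 1 lower. With the mitochondrial mRNA share as a covariate 1 member passed and the median was 0.30; that share went partly with the group, so the covariate and the group compete for the same difference.

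**Figure D2:**
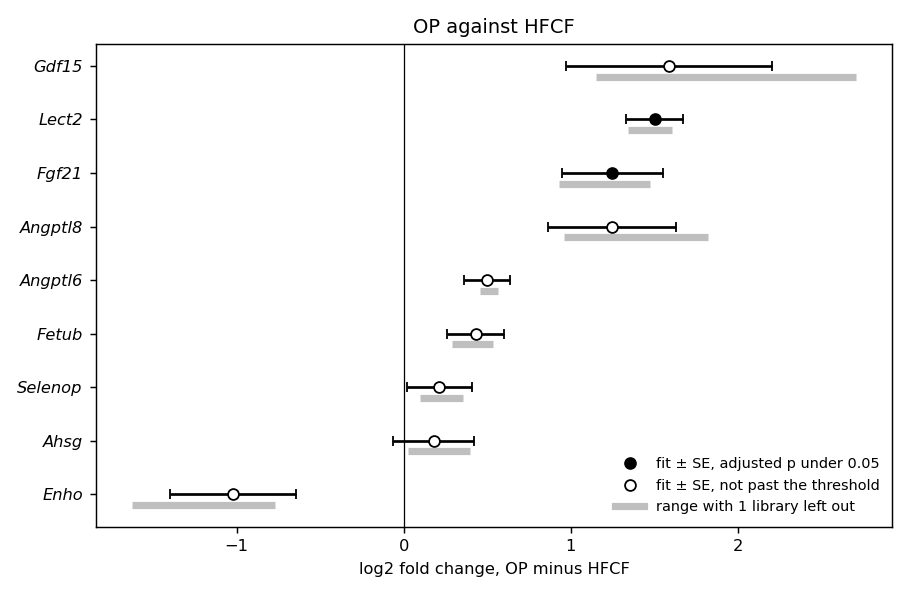
Log2 fold changes of the 9 members, OP minus HFCF, from edgeR, with standard errors as bars, filled circles for adjusted p under 0.05, and grey bars for the range of the fold change when each of the 6 libraries is left out. Lect2 (1.503) and Fgf21 (1.25) are filled, Gdf15 (1.59) has the widest grey bar, from 1.155 to 2.71, and Enho (-1.02) is the one member below 0.

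**Figure D3:**
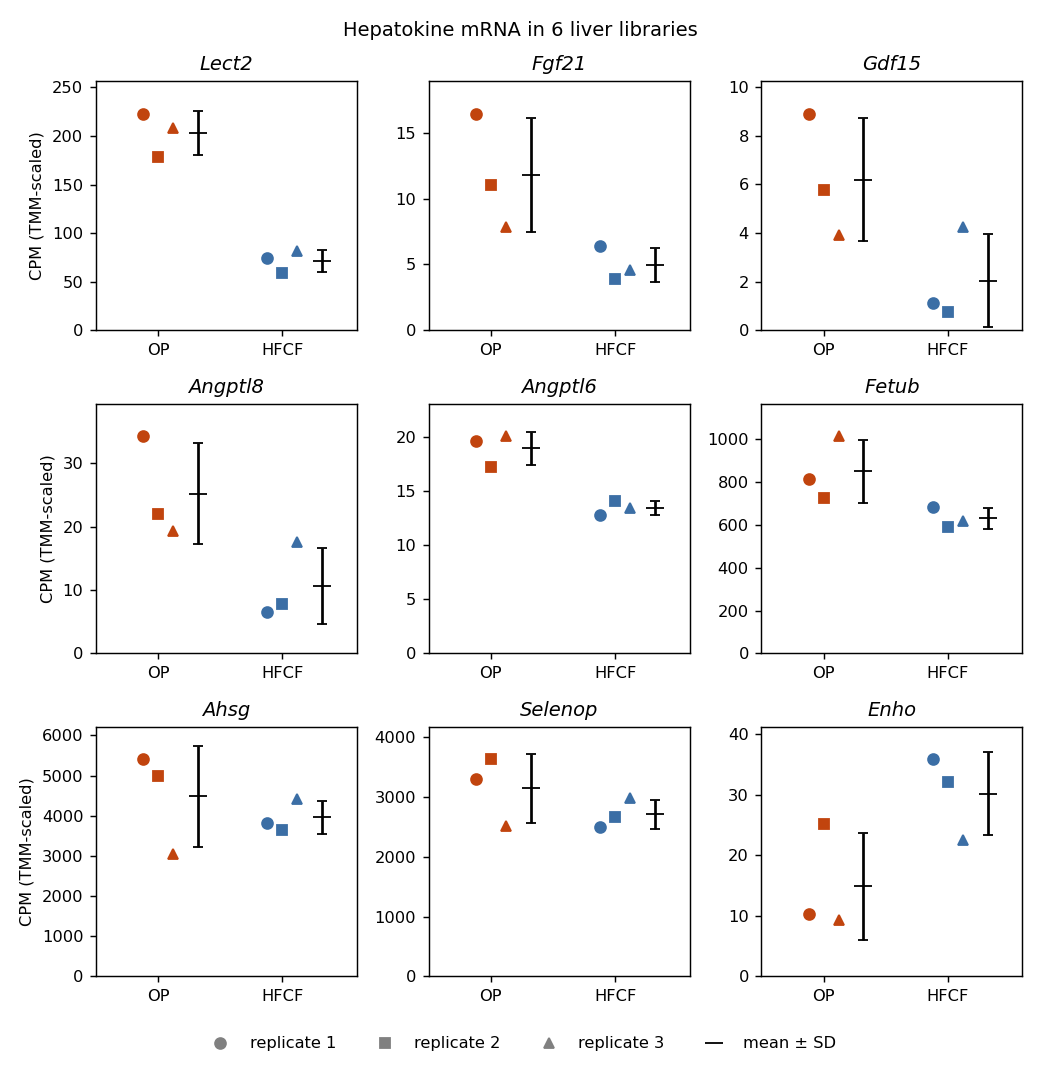
CPM of each member in every library, OP in orange left of HFCF in blue, with the marker shape for the replicate and black bars for mean ± SD over 3 libraries; each axis starts at 0. The Lect2 libraries are at 178 to 223 CPM in OP and 59.1 to 81.8 CPM in HFCF, whereas the Ahsg and Selenop groups overlap.

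Lect2, the gene of leukocyte cell-derived chemotaxin 2, a secreted protein of hepatocytes, had the smallest p of the members. It was at 223, 178 and 208 CPM in the OP libraries, against 74.1, 59.1 and 81.8 CPM in the HFCF libraries. The groups were far apart, and the lowest OP library stood well above the highest HFCF library. Lect2 rose by 1.503 ± 0.169 on the log2 scale (SE), a 2.83-fold difference (edgeR adjusted p = 0.00432). Leaving out any of the 6 libraries kept the call, with fold changes on the log2 scale of 1.35 to 1.61 and edgeR adjusted p of 0.00882 to 0.0492, as did a fit with the mitochondrial share as covariate (1.47, edgeR adjusted p = 0.0455).

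Lect2 is a hepatocyte gene of the zone around the central vein, where Wnt and beta-catenin signalling acts through TCF and LEF factors. Its promoter is shown because the core letters that these factors read, ATCAAAG, lie shortly before its start. The stretch is the 250 bases before the RefSeq start of Lect2 (GRCm38.p6, chr13:56548539-56548788, minus strand), printed in the direction of transcription with the motif in capitals.
Lect2: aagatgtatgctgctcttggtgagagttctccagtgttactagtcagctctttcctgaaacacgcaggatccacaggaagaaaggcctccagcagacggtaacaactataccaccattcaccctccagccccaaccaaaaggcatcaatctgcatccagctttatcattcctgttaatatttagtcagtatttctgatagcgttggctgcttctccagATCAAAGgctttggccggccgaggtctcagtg
The match began 32 bases before the start. Searched on both strands in windows from 250 bases before to 50 bases after each start, ATCAAAG was found in 3.73% of 32851 RefSeq promoter windows. Among the members with a window (8 of 9) only Lect2 held it, and among 9 pericentral genes with a window Slc1a2 held it. Such a match describes the letters and shows no binding.

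The pericentral genes were measured beside Lect2. Of 14 tested, 4 rose and 0 fell (edgeR), and the median log2 fold change was 0.38. An unadjusted p under 0.05 was found for 8 of 14, against 4385 of all 17394 genes tested. The 4 that rose were Cyp2a5, a cytochrome P450 (1.48 ± 0.303, SE), Rgn, the calcium-binding regucalcin (0.82 ± 0.181), Cyp2c37 (0.64 ± 0.158) and Gulo, an enzyme of vitamin C synthesis (0.63 ± 0.132), with edgeR adjusted p of 0.0285 to 0.0489. Cyp2a5 has close copies, so the split of its reads is uncertain. The count was 2 without OP replicate 2 or OP replicate 3, 5 without HFCF replicate 3 and 0 without OP replicate 1, HFCF replicate 1, HFCF replicate 2, or in the fit with the mitochondrial covariate. Axin2, a direct target of Wnt signalling, had 7.93 ± 1.54 CPM in OP and 11.2 ± 2.64 CPM in HFCF, and Glul, the glutamine synthetase next to the central vein, 1049 ± 97.1 CPM in OP and 799 ± 102 CPM in HFCF; neither passed (edgeR adjusted p = 0.206 and 0.175). Of 14 periportal genes 6 fell (Sds, Hal, Cps1, Gls2, Etnppl and Sdsl) and none rose, with a median of -0.96; Sds (-2.69) shares exon bases on the opposite strand with Gm15690 (141 bases, log2 fold change -2.97, edgeR adjusted p = 0.0089) and Plbd2 (360 bases, -0.78, edgeR adjusted p = 0.0143), so its counts are uncertain. The periportal count was 4 without OP replicate 1 or OP replicate 2 and 2 without HFCF replicate 1 or HFCF replicate 2.

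Fgf21 was the other member that rose. Its libraries held 16.4, 11.1 and 7.87 CPM in OP (987, 703 and 378 counts), against 6.41, 3.87 and 4.61 CPM in HFCF (309, 186 and 279 counts). The groups did not overlap, but the lowest OP library lay close to the highest HFCF library, and OP replicate 1 was the highest of all. The log2 fold change was 1.25 ± 0.303 (SE), a 2.38-fold difference, with an edgeR adjusted p of 0.0472, just under the threshold. It missed the threshold when any of 5 libraries was left out: without OP replicate 1 it was 0.93 (edgeR adjusted p = 0.1535), without OP replicate 2 1.30 (0.0878), without HFCF replicate 1 1.48 (0.116), without HFCF replicate 2 1.07 (0.213) and without HFCF replicate 3 1.20 (0.0993). It passed without OP replicate 3 (edgeR adjusted p = 0.0296). With the mitochondrial share as a covariate it was 1.03 ± 0.557 (edgeR adjusted p = 0.396). Over its alternatives the adjusted p ran from 0.0013 to 0.396.

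The promoters of Fgf21 and Angptl8 are shown because they share a motif and both genes were higher in every OP library than in the HFCF libraries. The motif, TTGCATCA, is the letters of a composite element that ATF4 reads with C/EBP proteins; a second motif in Fgf21, CACGTG, is an E-box. Both stretches are the 250 bases before the RefSeq start (GRCm38.p6; Fgf21 at chr7:45615491-45615740, minus strand; Angptl8 at chr9:21835260-21835509, plus strand), in the direction of transcription with the motifs in capitals.
Fgf21: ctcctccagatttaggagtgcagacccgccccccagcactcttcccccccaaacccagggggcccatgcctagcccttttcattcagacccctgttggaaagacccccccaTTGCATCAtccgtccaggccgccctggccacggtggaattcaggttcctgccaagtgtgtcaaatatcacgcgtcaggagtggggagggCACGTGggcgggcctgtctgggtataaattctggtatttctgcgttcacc
Angptl8: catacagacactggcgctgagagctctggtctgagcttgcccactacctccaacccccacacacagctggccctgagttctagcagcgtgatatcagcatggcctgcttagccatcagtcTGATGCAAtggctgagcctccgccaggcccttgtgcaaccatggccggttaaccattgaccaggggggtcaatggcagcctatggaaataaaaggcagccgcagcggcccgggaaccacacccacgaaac
In Fgf21 the composite element began 139 bases before the start and the E-box 50 bases before it. In Angptl8 the same 8 letters lay on the other strand, printed as TGATGCAA, 130 bases before the start. On both strands TTGCATCA was found in 0.895% of the RefSeq windows, and CACGTG, which reads the same on both strands, in 7.15%. Outside the members, the listed genes with TTGCATCA were Inhbe, Atf3, Hsd17b13 and the ATF4 targets Chac1, Nupr1, Slc7a11 and Vldlr. Inhbe rose (1.002, edgeR adjusted p = 0.0268). Atf3 was higher in every OP library but did not pass (1.43, edgeR adjusted p = 0.117). Slc7a11 was not tested, and the rest did not pass. A second window of Gdf15 held CACGTG. The PPAR response element searched, 2 copies of AGGTCA with 1 base between them, was in no member's window and in 0.0396% of all windows, which says only that these letters are not in this stretch.

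Gdf15 was low and uneven. It had 8.91, 5.76 and 3.91 CPM in OP (535, 366 and 188 counts), against 1.12, 0.769 and 4.24 CPM in HFCF (54, 37 and 257 counts). HFCF replicate 3 stood apart from the other HFCF libraries and above the lowest OP library, so the groups overlapped. Its log2 fold change was 1.59 ± 0.616 (SE) and did not pass (edgeR adjusted p = 0.152). Without HFCF replicate 3 it was 2.71 (edgeR adjusted p = 0.0239), and in the fit with the mitochondrial covariate 0.19 (edgeR adjusted p = 0.912). Gdf15 passed in DESeq2 (adjusted p = 0.0224) and in limma-voom with quality weights (adjusted p = 0.0092). It did not pass in limma-voom without them (adjusted p = 0.0792). HFCF replicate 3 was also the HFCF library highest in Angptl8, Lect2, Ahsg and Selenop, and its mitochondrial share, 14.1%, was the lowest of its group; the part of that share in the Gdf15 value was not tested.

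Of 15 transcription factors known to act on Fgf21 or Gdf15, 2 rose, Ddit3 and Nfe2l2, and none fell. Ddit3, which encodes CHOP, rose to 20.8, 14.3 and 26.7 CPM in OP, against 6.95, 7.21 and 7.58 CPM in HFCF, a log2 fold change of 1.51 ± 0.227 (SE; edgeR adjusted p = 0.0113). The groups were well separated. Atf4, the gene of a factor that acts when amino acids are short, was at 115 ± 11.0 CPM in OP and 122.9 ± 11.5 CPM in HFCF (log2 fold change -0.09 ± 0.141, edgeR adjusted p = 0.73). These are mRNA levels, and the amount and activity of the ATF4 protein were not measured. Nfe2l2, the NRF2 gene of the oxidative stress response, rose by 0.84 ± 0.174 (edgeR adjusted p = 0.0298). Ppara, the fasting receptor, had 31.4 ± 1.67 CPM in OP and 39.7 ± 5.00 CPM in HFCF (edgeR adjusted p = 0.179), and Mlxipl, which encodes ChREBP, 529.6 ± 183 CPM in OP and 343 ± 21.3 CPM in HFCF (edgeR adjusted p = 0.1615); neither passed. The count of factors was 0 without OP replicate 1, HFCF replicate 1 or HFCF replicate 2, 1 without HFCF replicate 3 and 3 without OP replicate 2 or in the fit with the mitochondrial covariate.

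Targets of ATF4 were mixed in value. Of 15 listed genes 13 were tested; 4 fell, 0 rose and 9 did not pass (edgeR), and the median log2 fold change was -0.31. An unadjusted p under 0.05 was found for 7 of 13 in edgeR, against 4385 of all 17394 genes tested. Of these 7, 4 were those that fell. The other 3 had positive log2 fold changes that did not pass, namely Mthfd2 (1.02, edgeR adjusted p = 0.197), Vldlr (0.82, 0.194) and Slc3a2 (0.43, 0.142). The list median was 0.089, of the opposite sign, in the fit with the mitochondrial covariate, and limma-voom with quality weights gave 2 higher and 3 lower. Trib3, a pseudokinase gene induced by ATF4 and CHOP, fell to 4.72, 6.57 and 3.98 CPM in OP, against 14.3, 18.1 and 23.8 CPM in HFCF (-1.88 ± 0.255, SE; edgeR adjusted p = 0.00812). Cth, an enzyme of cysteine synthesis, was at 206, 194 and 123.4 CPM in OP, against 746, 565 and 679.7 CPM in HFCF (-1.93 ± 0.223, edgeR adjusted p = 0.00462). For Trib3 and Cth the highest OP library lay well below the lowest HFCF library. Atf5, a related factor, was at 164 ± 53.7 CPM in OP and 358 ± 28.8 CPM in HFCF. Asns, the asparagine synthetase, held 30, 23 and 6 counts in OP, against 671, 113 and 69 counts in HFCF, where 1 library dominated. Without HFCF replicate 1 its log2 fold change was -2.39 in place of -4.11, and it did not pass. Leaving out any library kept the call of Cth; Trib3 missed the threshold without OP replicate 1 or HFCF replicate 2, Atf5 passed only without OP replicate 3, and Asns only without HFCF replicate 3. The number of targets that fell was 1 without OP replicate 1 or HFCF replicate 2, 2 without OP replicate 2 or HFCF replicate 1, or in the fit with the mitochondrial covariate, and 3 without OP replicate 3 or HFCF replicate 3; without HFCF replicate 3, 1 rose. In 4 of 13 targets with a promoter window (Chac1, Nupr1, Slc7a11 and Vldlr) TTGCATCA was found, and of these Chac1, Nupr1 and Vldlr were tested and none passed in edgeR.

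**Figure D4:**
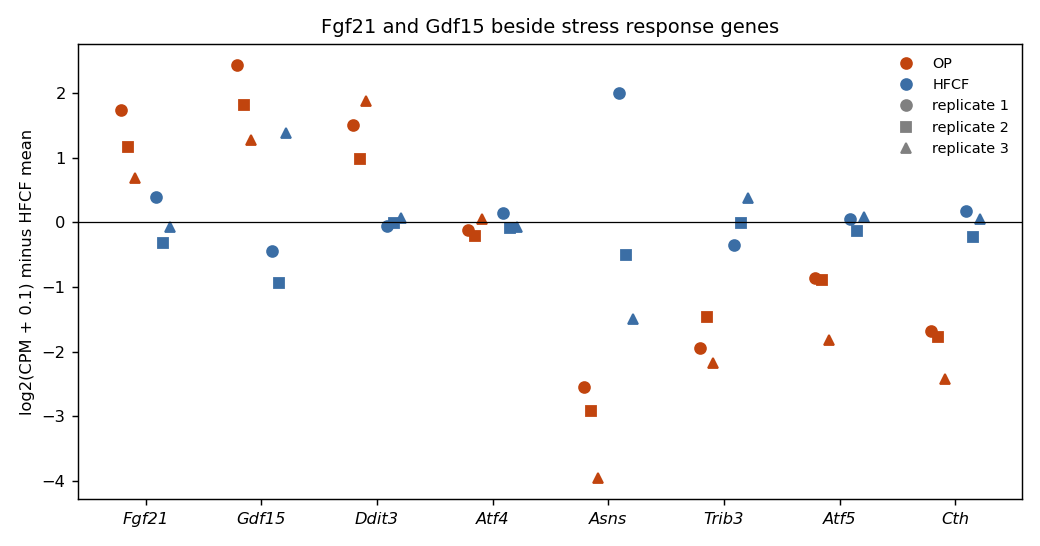
Log2(CPM + 0.1) of Fgf21, Gdf15 and 6 stress response genes in each library, minus the mean of the 3 HFCF libraries, with OP in orange left of HFCF in blue. Fgf21 and Ddit3 lie above the HFCF libraries in all 3 OP libraries, and Asns, Trib3, Atf5 and Cth lie below them. For Atf4, OP replicate 3 lies among the HFCF libraries and OP replicates 1 and 2 lie below them. HFCF replicate 3 is high for Gdf15 and HFCF replicate 1 for Asns.

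PPAR-alpha targets, a second set of genes that share a known activator with Fgf21, were mixed. Of 14 tested, Vnn1, a pantetheinase (1.56 ± 0.138, SE, edgeR adjusted p = 0.00229), and Fabp1, the liver fatty acid binding protein (1.25 ± 0.206, edgeR adjusted p = 0.0143), rose, while Ehhadh, a peroxisomal oxidation enzyme, fell (-1.34 ± 0.18, edgeR adjusted p = 0.00762). The median log2 fold change was 0.41. Cyp4a14, a strong PPAR-alpha target, was at 1764 ± 613 CPM in OP and 2930.4 ± 453 CPM in HFCF and did not pass (edgeR adjusted p = 0.148). The 3 calls became 1 without HFCF replicate 1 or HFCF replicate 2 and 2 without OP replicate 1, and the median was -0.32 with the mitochondrial share as a covariate.

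On the receiving side, the receptor genes measured in liver included 1 FGF receptor that fell. Fgfr1, the FGF receptor through which FGF21 mainly acts in fat and brain, fell to 5.67, 7.63 and 8.24 CPM in OP, against 19.3, 18.9 and 14.4 CPM in HFCF (-1.29 ± 0.199, SE; edgeR adjusted p = 0.012). No OP library reached the lowest HFCF library. Klb, which encodes beta-Klotho, was at 6.57 ± 0.885 CPM in OP and 9.29 ± 1.21 CPM in HFCF, and Fgfr4, the main FGF receptor of hepatocytes, at 32.8 ± 9.05 CPM in OP and 46.3 ± 4.26 CPM in HFCF (edgeR adjusted p = 0.144 and 0.169). Met, the hepatocyte growth factor receptor that LECT2 can bind, was at 49.4 ± 5.82 CPM in OP and 30.0 ± 6.26 CPM in HFCF (edgeR adjusted p = 0.0562). Insr, the insulin receptor bound by fetuin-A, was at 95.6 ± 6.00 CPM in OP and 117 ± 4.32 CPM in HFCF (edgeR adjusted p = 0.197). Gfral, the GDF15 receptor of the hindbrain, had 0 counts in all 6 libraries, and its partner Ret was not tested. Fgfr1 lost its call without OP replicate 1, HFCF replicate 1 or HFCF replicate 2 (-1.41 to -1.15 over the libraries left out).

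Angptl8, the feeding-induced inhibitor of lipoprotein lipase, was higher in value in OP but did not pass. It had 34.2, 22.0 and 19.3 CPM in OP, against 6.49, 7.77 and 17.55 CPM in HFCF. HFCF replicate 3 came close to the OP libraries. In TPM, which lacks TMM scaling, the groups overlapped, with OP replicate 3 at 32.4 TPM and HFCF replicate 3 at 34.9 TPM. The log2 fold change was 1.25 ± 0.384 (SE, edgeR adjusted p = 0.0871). Without HFCF replicate 3 it was 1.82 (edgeR adjusted p = 0.0214), and in the fit with the mitochondrial covariate 0.30 (edgeR adjusted p = 0.749). Angptl8 passed in DESeq2 (adjusted p = 0.00423) and in limma-voom with quality weights (adjusted p = 0.0064). It did not pass in limma-voom without them (adjusted p = 0.0591). Angptl8 lies inside an intron of Dock6 on the opposite strand and shares 0 exon bases with it in GENCODE M21.

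Angptl6, an angiopoietin-like growth factor with metabolic effects in mice, differed by a small amount with little spread. It had 19.6, 17.25 and 20.1 CPM in OP, against 12.8, 14.1 and 13.5 CPM in HFCF, and the groups did not overlap. The log2 fold change was 0.50 ± 0.137 (SE), which did not pass (edgeR adjusted p = 0.0658), with a range of 0.46 to 0.56 over the libraries left out. Angptl6 passed in limma-voom with quality weights (adjusted p = 0.0285) but not in DESeq2 (adjusted p = 0.0554) or in limma-voom without weights (adjusted p = 0.0665). Angptl6 shares 265 exon bases (16.8% of its own) with A230050P20Rik on the opposite strand, which fell (-1.17, edgeR adjusted p = 0.00618). The sources used here do not give whether strand was used in counting, so reads of the shared stretch cannot be assigned with certainty.

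The angiopoietin-like family and its targets were read together with these members. None of the 7 family members tested passed in edgeR, and 2 passed in DESeq2 and 1 in limma-voom. In edgeR 3 of 7 had an unadjusted p under 0.05, against 4385 of all 17394 genes tested. Angptl4, a lipase inhibitor of fasting, was at 203 ± 54.1 CPM in OP and 153 ± 9.39 CPM in HFCF (edgeR adjusted p = 0.237). Lipc, the hepatic lipase, rose by 0.71 ± 0.125 (edgeR adjusted p = 0.0176) and Lipg, the endothelial lipase, by 1.57 ± 0.32 (edgeR adjusted p = 0.0285). With Fgfr1, which fell, they were the 3 of 14 tested receptor, cofactor and target genes that passed. All 3 calls were lost without OP replicate 1, HFCF replicate 1 or HFCF replicate 2, or in the fit with the mitochondrial covariate. Without OP replicate 2 or HFCF replicate 3, 1 rose and 1 fell, and without OP replicate 3, 2 rose and 3 fell.

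Genes that answer to insulin and sugar, as Angptl8 does, were measured beside it. Of 12 tested, 3 rose, Thrsp and Pklr among them, and none fell, with a list median of 0.36. Thrsp, a lipogenic gene, was at 106, 45.4 and 59.5 CPM in OP, against 8.83, 9.65 and 9.25 CPM in HFCF (2.92 ± 0.301, SE; edgeR adjusted p = 0.0034). The lowest OP library stood far above the highest HFCF library. Pklr, the liver pyruvate kinase, rose by 0.83 ± 0.124 (edgeR adjusted p = 0.0112); Pklr shares exon bases with Hcn3, transcribed from the other strand, whose log2 fold change was 1.45. Thrsp passed in each of the 6 fits with a library left out. Pklr missed the threshold without OP replicate 1, HFCF replicate 1 or HFCF replicate 2. Without HFCF replicate 1 or HFCF replicate 2 the number that rose was 1, and without OP replicate 1 it was 2. Srebf1, the insulin-responsive lipogenic factor, was at 80.5 ± 2.42 CPM in OP and 62.6 ± 4.31 CPM in HFCF, and Nr1h3, the LXR-alpha gene, at 99.6 ± 6.34 CPM in OP and 79.3 ± 3.13 CPM in HFCF. Neither passed (edgeR adjusted p = 0.12 and 0.151). Of the rest that did not pass, Fasn (log2 fold change 0.86), Mlxipl (0.63), Scd1 (0.36) and Me1 (0.30) were higher in value in OP. Acaca was nearly level (0.03), and Elovl6 (-0.25) and Txnip (-0.39) were lower in value.

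The fetuins, abundant plasma proteins with cystatin domains, did not pass. Ahsg was at 5401, 4996 and 3049.5 CPM in OP, against 3824, 3632 and 4408 CPM in HFCF. OP replicate 3 was the lowest of all libraries while the other OP libraries were the highest, so the groups overlapped. The log2 fold change was 0.18 ± 0.242 (SE, edgeR adjusted p = 0.691), and 0.40 without OP replicate 3 and 0.025 without OP replicate 1. Fetub was at 813, 727 and 1013 CPM in OP, against 684, 589.85 and 618 CPM in HFCF, with each OP library above each HFCF library. OP replicate 3, lowest in Ahsg, was highest in Fetub. The Fetub log2 fold change was 0.43 ± 0.17 (SE) and did not pass (edgeR adjusted p = 0.157), with a range of 0.29 to 0.54 over the libraries left out.

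Ahsg and Fetub neighbour Hrg and the kininogen genes in the genome, and all encode plasma proteins with cystatin domains. None of these 5 passed in edgeR, 1 passed in DESeq2 and 0 in limma-voom. In edgeR 2 of 5 had an unadjusted p under 0.05, against 4385 of all 17394 genes tested. Kng1 was at 1870.3 ± 30.5 CPM in OP and 1476 ± 215 CPM in HFCF, Kng2 at 242 ± 11.1 CPM in OP and 175 ± 23.8 CPM in HFCF, and Hrg, the histidine-rich glycoprotein, at 724 ± 104 CPM in OP and 666 ± 12.7 CPM in HFCF. Ahsg shares 62 exon bases with the antisense gene Gm30505, which held at most 159 counts a library.

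Selenop, which encodes the selenium carrier of plasma, was at 3296, 3631 and 2509 CPM in OP, against 2497, 2659 and 2981 CPM in HFCF. The groups overlapped, with OP replicate 3 near the bottom of the HFCF range. Its log2 fold change was 0.21 ± 0.194 (SE, edgeR adjusted p = 0.544), and 0.10 to 0.35 over the libraries left out. Ccdc152 lies over Selenop on the opposite strand with 439 shared exon bases (15.4% of those of Selenop), and had 142 to 579 counts in OP and 278 to 650 counts in HFCF, against 120506 to 230902 counts of Selenop in OP and 120423 to 180570 in HFCF.

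Other selenoproteins, which draw on the same selenium supply in hepatocytes, were measured beside Selenop. Of 18 tested, 3 rose, 0 fell (edgeR) and 15 did not pass, with a median of 0.097. An unadjusted p under 0.05 was found for 6 of 18, against 4385 of all 17394 genes tested. Dio1, the deiodinase that activates thyroid hormone, rose to 165, 207 and 164 CPM in OP, against 68.6, 58.1 and 42.6 CPM in HFCF (1.66 ± 0.202, SE; edgeR adjusted p = 0.00554). Gpx1, the cytosolic glutathione peroxidase, was at 2128, 2327.5 and 1917 CPM in OP, against 1154, 1090.0 and 1411 CPM in HFCF (0.80 ± 0.173, edgeR adjusted p = 0.0336). For both genes the lowest OP library lay above the highest HFCF library. Selenot, a selenoprotein of the endoplasmic reticulum, rose by 0.54 ± 0.132 (edgeR adjusted p = 0.0486) and missed the threshold in each of the 6 fits with a library left out. The count was 3 without OP replicate 3 or HFCF replicate 3, 1 without OP replicate 1, OP replicate 2 or HFCF replicate 1, or in the fit with the mitochondrial covariate, and 0 without HFCF replicate 2. None of 8 genes of selenoprotein synthesis passed in edgeR, DESeq2 or limma-voom (4 had an unadjusted p under 0.05 in edgeR).

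Enho, which encodes adropin, was the one member with a lower mean in OP. It had 10.2, 25.1 and 9.22 CPM in OP, against 35.8, 32.04 and 22.6 CPM in HFCF. OP replicate 2 stood apart from the other OP libraries and above the lowest HFCF library, so the groups overlapped. Its log2 fold change was -1.02 ± 0.376 (SE) and did not pass (edgeR adjusted p = 0.136). Without OP replicate 2 it was -1.63 (edgeR adjusted p = 0.0171), and the range over the libraries left out was -1.63 to -0.77. Enho passed, lower in OP, in DESeq2 (adjusted p = 0.0181) and in limma-voom with quality weights (adjusted p = 0.0188). It did not pass in limma-voom without them (adjusted p = 0.0832).

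Beyond the 9 members, 26 other liver-secreted hormones and hormone carriers were tested, of which 4 rose, 1 fell and 21 did not pass, with a median log2 fold change of 0.28. Tsku, which encodes the hepatokine tsukushi, had 271, 144 and 203 CPM in OP, against 29.3, 25.9 and 29.8 CPM in HFCF (2.86 ± 0.236, SE; edgeR adjusted p = 0.00193), with the groups far apart. Fst, the activin antagonist follistatin, was the gene that fell, to 1.28, 0.66 and 0.437 CPM in OP, against 6.80, 6.84 and 7.20 CPM in HFCF (-3.12 ± 0.389, edgeR adjusted p = 0.00601). The activin subunit genes Inhbe and Inhbc rose by 1.002 ± 0.2 and 1.29 ± 0.219, and Lcn2, the lipocalin of the acute phase, by 1.004 ± 0.248 (edgeR adjusted p of 0.0268, 0.0158 and 0.0495). Tsku and Fst passed in each of the 6 fits with a library left out, while the others missed the threshold without OP replicate 1, HFCF replicate 1 or HFCF replicate 2, among others. When any 1 of those 3 libraries was left out, or in the fit with the mitochondrial covariate, 1 rose and 1 fell; without OP replicate 2, 2 rose and 2 fell; and without OP replicate 3, 3 rose and 2 fell. Igfbp1, an insulin-suppressed binding protein, was at 20.9 ± 17.0 CPM in OP and 129 ± 49.7 CPM in HFCF and did not pass (edgeR adjusted p = 0.0527). Igf1, the insulin-like growth factor, was at 509 ± 55.7 CPM in OP and 409.97 ± 59.0 CPM in HFCF (edgeR adjusted p = 0.271).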

How the data were processed

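Liver RNA of 3 OP and 3 HFCF samples was sequenced after oligo(dT) selection with dUTP in the second strand, per the labels' protocols. Cutadapt 1.9, FastQC and the build GRCm39 are named in the submitters' processing notes; the sources used here do not give the aligner, counter or strand setting. Deposited by the authors were whole-number counts per gene, 1 column per library. Groups came from the sample titles. Members and lists were chosen with earlier results of these data known.

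Symbols and exon lengths came from GENCODE M21 tables (55141 of 55401 identifiers matched). Genes were kept by filterByExpr (17394 of 27893 with any count), scaled by TMM and tested two-sided with edgeR 4.0.16 (glmQLFit, glmQLFTest) in R 4.3.3, adjusted by Benjamini-Hochberg over all genes tested, threshold 0.05; the fit was tested on simulated data. Standard errors were taken as the size of the fold change over root F. No pair of replicates agreed within sampling noise (chi-square per degree of freedom of 46.2 to 349.7). Named genes are the 9 members, list genes past the threshold, and Ppara, Atf4, Ddit3, Mlxipl, Klb, Fgfr4 and Met; the other genes named with values were chosen after their values were seen. Some items the rule would name are not reported here. Alternatives were DESeq2 1.42.0, limma-voom (limma 3.58.1) without and with quality weights, other scalings, filters, thresholds, dispersions and count units, a replicate block, mitochondrial genes left out or their share as a covariate, and each library left out. Promoters came from RefSeq (GRCm38.p6), another build than the counts, and were used for letters only. Figures used matplotlib 3.10.9.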

Additional observations from a re-analysis of the deposited data

How the results depend on the processing

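Of 17394 genes tested, 1170 passed in edgeR (567 higher, 603 lower in OP) and 2 of 9 members. The numbers for all genes and for members were 2333 and 5 with DESeq2, 3359 and 6 with limma-voom and quality weights, 698 and 1 with no low-count filter, 207 and 1 with the mitochondrial mRNA share as a covariate, 164 and 1 at an adjusted p under 0.01, 2552 and 4 at an adjusted p under 0.1, and 88 to 1310 and 1 to 3 with each library left out. Upper quartile scaling left 1 member. The cause of these differences was not tested.

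With the replicate number as a block, 180 genes and 1 member (Lect2) passed. Same-numbered libraries did not deviate together (correlations of 0.023, -0.126 and -0.164 over genes), and no library correlated best with its own number. Whether the numbers stand for pairs or batches is not stated, and 3 libraries a group cannot settle it.

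Among 189 single-member fold changes under the alternatives, 165 kept direction and side of the threshold, 12 passed where the reported fit did not, 10 lost a call (all of Fgf21) and 2 reversed: with the mitochondrial share as a covariate Ahsg was -0.44 and Selenop -0.24. The cause was not tested. Gdf15 had the fewest counts of the members in each library, at 37 to 535. With all counts divided by 4 its log2 fold change was 1.55 (edgeR adjusted p = 0.1065).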

Other observations

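Genes with the library pattern closest to Lect2 and Fgf21 were ranked among 11871 named genes with a mean of at least 1 CPM, by the root mean square difference of log2 CPM values centred on their mean over the 6 libraries. Closest to Lect2 were Ces1e, a carboxylesterase (0.131 log2 units), Gamt, an enzyme of creatine synthesis (0.132), and Ccnd1, the cyclin D1 gene (0.151). Their log2 fold changes were 1.39, 1.54 and 1.56, and all 3 passed in edgeR. Ccnd1 shares 23.4% of its exon bases with a gene on the opposite strand. Closest to Fgf21 were Fastkd5 (0.193), Praf2 (0.229) and Ficd, which regulates the chaperone BiP (0.24). Their log2 fold changes were 0.95, 1.31 and 0.995, of which Praf2 passed. Fastkd5 shares 65.2% of its exon bases on the same strand with Ubox5, and Praf2 shares 35.9% with a predicted gene, so their counts are uncertain. With 6 libraries in 2 groups, likeness of this kind reflects the group difference and a few library values.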
